A study of Brassica napus with 12 samples.

Results

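FLOWERING LOCUS C (FLC) encodes a MADS-box transcription factor that holds back flowering. In Arabidopsis thaliana it binds and represses the floral activators FT and SOC1, and prolonged cold (vernalization) silences it through Polycomb proteins, so that plants flower in spring. Oilseed rape (Brassica napus) joined an A genome and a C genome, and each brought several FLC genes. The 9 copies described here, of 101040 annotated coding sequences, were taken by their identifiers. They comprise 4 copies on A chromosomes (BnaA02g00370D, BnaA03g02820D, BnaA03g13630D and BnaA10g22080D) and 5 on C chromosomes (BnaC02g00490D, BnaC03g04170D, BnaC03g16530D, BnaC09g46500D and BnaC09g46540D). Their coding lengths lie between 591 and 690 bases. On A03 and on C03 the copy with the lower gene number is called the first and the other the second.

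RNA came from seedlings of the cultivars Avatar and Zhongshuang 9 at an age of 16 days, from the first true leaf, after 24 h in air or completely under tap water, with 3 libraries in each of the 4 groups, numbered 1, 3 and 4. As background, Avatar is a winter type, which needs a long cold period to flower, and Zhongshuang 9 a semi-winter type, which needs less; the labels do not give this. All groups were raised with 8 h of light a day near 23 °C, and the growth protocol names no cold period. It is not stated if 1 plant or several went into a library, or if replicates were sown separately, so p-values measure only the spread between these samples. Libraries held 24389813 to 35873196 estimated counts. Earlier results of these data list 5 libraries with silent or shifted stretches of chromosome, some of which hold FLC copies: Avatar air replicates 3 and 4, Avatar submergence replicate 1, Zhongshuang 9 air replicate 4 and Zhongshuang 9 submergence replicate 1. Fits without these 5 libraries leave 1 Avatar air library, which is then assumed to vary like the other groups, so their air values for Avatar carry no check of their own.

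All 9 copies had enough counts to be tested. Levels are given in TPM (transcript abundance scaled for coding length and library), which allows copies to be compared with each other. In Zhongshuang 9 in air the order of the copies was clear. The first A03 copy led at 74.0 ± 3.44 TPM (SD, n = 3). The A02 copy followed at 25.8 ± 1.45 TPM, the C02 copy at 17.9 ± 1.36 TPM, the A10 copy at 15.2 ± 1.17 TPM and the second A03 copy at 9.26 ± 0.25 TPM. BnaC09g46500D stood at 2.13 ± 0.404 TPM and the second C03 copy at 0.941 ± 0.0662 TPM. At the bottom BnaC09g46540D reached 0.323 ± 0.248 TPM and the first C03 copy 0.0759 ± 0.0700 TPM. In this group the ranges of neighbouring copies in the order did not overlap. Avatar in air had the same first and second place, at 73.2 ± 29.3 TPM for the first A03 copy and 31.1 ± 13.6 TPM for the A02 copy, but the ranges of these copies overlapped. The next 5 copies of Avatar in air lay between 15.2 ± 2.21 TPM (BnaC09g46540D) and 7.55 ± 12.1 TPM (the A10 copy), each overlapping the next. Under submergence the first A03 copy of Avatar (37.4 ± 4.58 TPM) ranked below its A02 copy (45.2 ± 14.0 TPM), again with overlapping ranges. In Zhongshuang 9 under submergence the first A03 copy led at 104 ± 22.7 TPM, ahead of the A02 copy at 57.7 ± 25.0 TPM, and the ranges did not overlap. The leaf tissue holds many cell types, and fewer cells with FLC RNA cannot be told apart from less FLC RNA per cell.

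**Figure D1:**
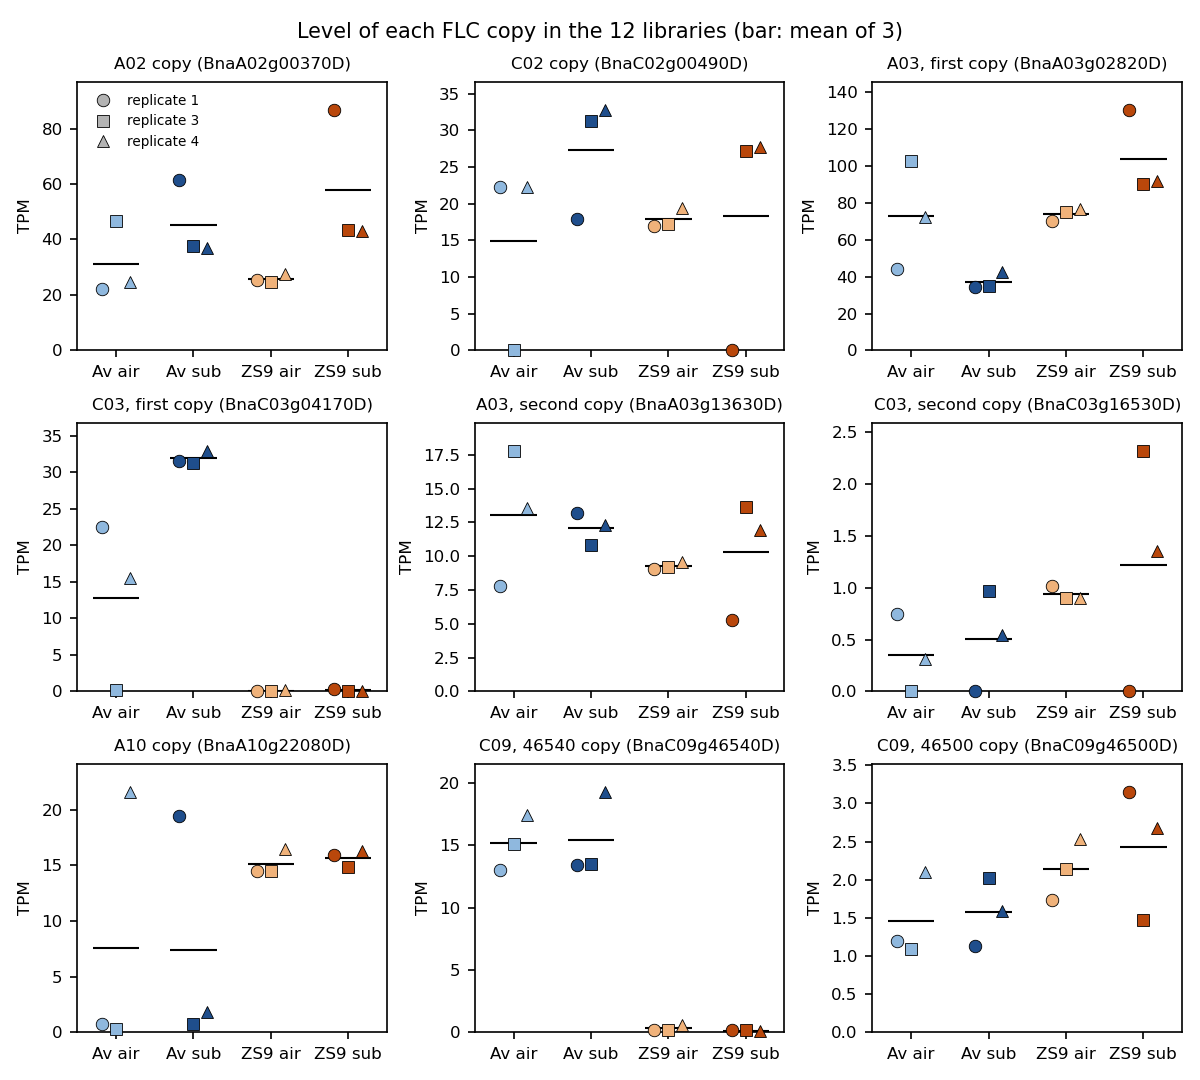
TPM (vertical axis, linear, each panel with its own scale) of each FLC copy in Avatar (Av) and Zhongshuang 9 (ZS9) in air and under submergence (sub), with 1 point for each library, the symbol giving the replicate number and the bar the mean of 3. The first C03 copy and BnaC09g46540D were near 0 in all 6 Zhongshuang 9 libraries, the A10 copy was high in 2 and low in 4 Avatar libraries, and the C02 copy was near 0 in 1 library of each cultivar.

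The first C03 copy, BnaC03g04170D, was expressed in Avatar and all but silent in Zhongshuang 9. In Avatar it stood at 22.6, 0.224 and 15.5 TPM in air replicates 1, 3 and 4 and at 31.6, 31.3 and 32.9 TPM under submergence. Zhongshuang 9 had 0, 0.0897 and 0.138 TPM in air and 0.320, 0.0527 and 0.0653 TPM under submergence; the 0 rests on no count and allows up to 0.147 TPM (3 counts, counting error only). The groups did not overlap in either treatment, although Avatar air replicate 3 came close to the Zhongshuang 9 values. The log2 fold change of Zhongshuang 9 against Avatar was -7.43 ± 1.46 in air (± SE, n = 3, edgeR quasi-likelihood test, adjusted p = 0.00552) and -7.61 ± 1.37 under submergence (edgeR adjusted p = 0.00262). Estimates moved with single libraries: in air the log2 fold change was -6.69 without Avatar air replicate 1, -8.01 without Avatar air replicate 3 and -8.10 without Zhongshuang 9 air replicate 4, and under submergence it was -9.04 without Zhongshuang 9 submergence replicate 1. Without the 5 libraries with shifted stretches it was -8.94 and -9.09, and after each gene was centred on its neighbours -3.42 and -3.28. On log2(TPM + 1) it was -2.86 and -4.85. With limma-voom neither difference passed the threshold (adjusted p = 0.377 and 0.125). Adjusted p over all alternatives ranged from 3.47e-08 to 0.377 in air and from 1.29e-09 to 0.125 under submergence.

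BnaC09g46540D, one of the C09 copies, showed the same contrast. It stood at 13.03, 15.1 and 17.4 TPM in Avatar in air and at 13.4, 13.5 and 19.3 TPM in submerged Avatar. In Zhongshuang 9 the values were 0.183, 0.178 and 0.609 TPM in air and 0.190, 0.168 and 0.101 TPM under submergence. Every Avatar library lay above every Zhongshuang 9 library. The log2 fold change of Zhongshuang 9 against Avatar was -5.57 ± 0.44 in air (± SE, n = 3, edgeR adjusted p = 1.33e-05) and -6.64 ± 0.48 under submergence (edgeR adjusted p = 6.69e-06), and it passed the threshold in each of 24 alternatives for both treatments. Without Zhongshuang 9 air replicate 4, the highest Zhongshuang 9 value, it was -6.43 in air, and without the 5 libraries with shifted stretches it was -6.28 in air and -7.004 under submergence. On log2(TPM + 1), which understates changes of low genes, it was -3.62 and -3.81. The neighbouring copy BnaC09g46500D was low throughout, with 1.09 to 2.098 TPM in the 6 Avatar libraries and 1.48 to 3.15 TPM in the 6 Zhongshuang 9 libraries. Its difference between cultivars did not pass the test in air (log2 fold change 0.51 ± 0.38, edgeR adjusted p = 0.414) or under submergence (0.61 ± 0.38, edgeR adjusted p = 0.274).

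Under submergence the first A03 copy, BnaA03g02820D, was higher in Zhongshuang 9. Submerged Avatar had 34.4, 35.1 and 42.7 TPM and submerged Zhongshuang 9 had 130, 90.1 and 91.8 TPM, without overlap. The log2 fold change was 1.47 ± 0.25 (± SE, n = 3, edgeR adjusted p = 0.00180), and it lay between 1.14 and 1.61 over 24 alternatives, all past the threshold. In air Avatar had 44.2, 103 and 72.6 TPM and Zhongshuang 9 had 70.2, 75.1 and 76.8 TPM. The air groups overlapped, and the log2 fold change was -0.01 ± 0.24 (edgeR adjusted p = 0.983). Avatar air replicates 3 and 4 are libraries with a raised stretch of A03. With the 5 libraries with shifted stretches left out, the log2 fold change in air was 0.58, against a single Avatar air library.

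In all, 2 of the 9 copies differed between the cultivars in air, both lower in Zhongshuang 9, where 17.1% of the 55674 tested targets differed, 10.5% being lower and 6.6% higher. Under submergence 3 of 9 copies differed, against 24.5% of all targets, with 1 higher (background 10.3%) and 2 lower (background 14.2%). The median log2 fold change over the 9 copies was -0.01 in air and 0.36 under submergence, against 0.07 and -0.04 over all tested targets. For BnaA02g00370D, BnaA03g13630D, BnaC02g00490D, BnaC03g16530D and BnaC09g46500D, no difference between cultivars passed the test in either treatment (edgeR adjusted p between 0.274 and 0.951).

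**Figure D2:**
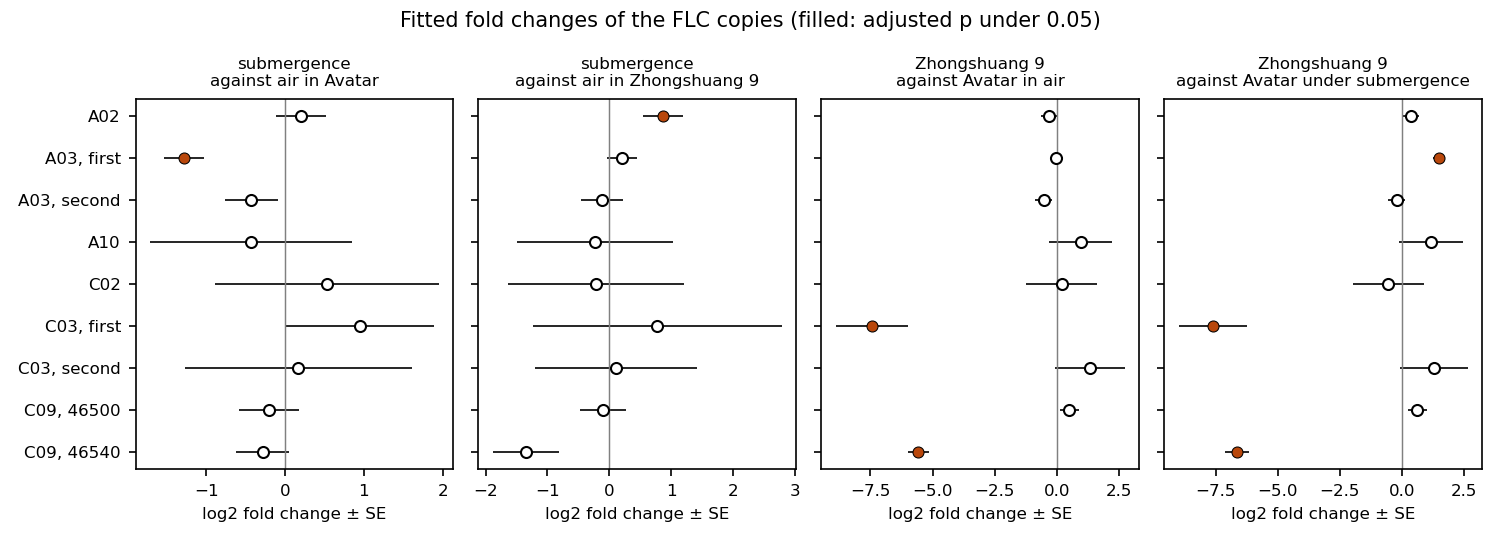
Log2 fold change ± SE of each copy (horizontal axis, a separate scale in each panel) for submergence against air in each cultivar and for Zhongshuang 9 against Avatar in each treatment, 3 libraries a group, with filled points where the edgeR adjusted p is under 0.05. The first C03 copy and BnaC09g46540D lie far to the left in both comparisons of cultivars, at -5.57 or lower. Bars are long for the A10, C02 and both C03 copies. Their length rests on 1 estimate of the spread shared by all 4 groups, not on the groups compared alone. The A10 copy thus has ± 1.26 for submergence in Zhongshuang 9, where its replicates lie close together.

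The A10 copy, BnaA10g22080D, took on 2 separate levels within Avatar. It stood at 0.759, 0.339 and 21.6 TPM in Avatar air replicates 1, 3 and 4 and at 19.5, 0.756 and 1.86 TPM in Avatar submergence replicates 1, 3 and 4. Each treatment thus had 1 high and 2 low libraries, with nothing in between. Zhongshuang 9 was uniform, at 14.5, 14.5 and 16.5 TPM in air and 15.9, 14.9 and 16.3 TPM under submergence. All 6 Zhongshuang 9 libraries lay between the low and the high Avatar libraries. The test found no difference between the cultivars in air (log2 fold change 0.96 ± 1.28, edgeR adjusted p = 0.677) or under submergence (1.16 ± 1.29, edgeR adjusted p = 0.559). Without Avatar air replicate 4, a high library, the log2 fold change in air was 4.65 and passed the threshold (edgeR adjusted p = 0.0397). Without the 5 libraries with shifted stretches, which takes out both high libraries, it was 4.08 in air, against a single Avatar air library, and 3.53 under submergence; that these values are larger follows from which libraries were taken out. Over the alternatives the adjusted p ranged from 0.00137 to 0.894 in air and from 0.000268 to 0.796 under submergence. The 2 high libraries are both among the 5 with shifted stretches. Avatar air replicate 3, the lowest library at 0.339 TPM, is also among these 5. The median deviation of the 40 neighbours of the A10 copy from their 12-library mean, on the log2 scale, was 0.35 in Avatar air replicate 4 against 0.21 and 0.17 in the low air replicates. It was 0.11 in Avatar submergence replicate 1 against -0.21 and -0.05 in the low submerged replicates, so the high library had the highest neighbour median in both treatments. The copy itself deviated by 1.95 and 1.40 in the high libraries and by -1.77 to -3.72 in the low ones.

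Several copies on chromosomes 2 and 3 shared single-library shifts with their neighbours. The C02 copy, BnaC02g00490D, had no count in Avatar air replicate 3, which allows up to 0.153 TPM, and 0.0440 TPM in Zhongshuang 9 submergence replicate 1. In the other libraries it stood at 22.3 and 22.3 TPM in Avatar air, 17.9, 31.3 and 32.7 TPM in submerged Avatar, 16.9, 17.3 and 19.4 TPM in Zhongshuang 9 air and 27.2 and 27.8 TPM in submerged Zhongshuang 9. In the 2 silent libraries 26 and 18 of its 40 nearest tested neighbours had at most 2 counts, against 0 to 4 in the other libraries. The A02 copy, BnaA02g00370D, was at its highest within 3 of the 4 groups in the library where the C02 copy was lowest: 46.8 TPM in Avatar air replicate 3 (22.1 and 24.5 in the others), 61.4 TPM in Avatar submergence replicate 1 (37.6 and 36.8) and 86.6 TPM in Zhongshuang 9 submergence replicate 1 (43.3 and 43.1). Its 36 neighbours on A02 had median deviations of 0.47, 0.30 and 0.97 in these libraries, close to the 0.47, 0.50 and 1.03 of the copy.

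The first A03 copy was likewise at its highest for Avatar, 103 TPM, in air replicate 3, where the first C03 copy was at 0.224 TPM. Its neighbours deviated by 0.83 there and by 0.42 in air replicate 4, and the copy by 0.75 and 0.29. In the 3 submerged Avatar libraries the copy lay lower than its neighbours, at -1.19, -1.05 and -0.73 against -0.25, -0.41 and -0.30. The second A03 copy, BnaA03g13630D, stood at 7.79, 17.8 and 13.5 TPM in Avatar air, and its neighbours deviated by 0.08, 0.88 and 0.67. It ranged from 10.8 to 13.2 TPM in submerged Avatar, from 9.08 to 9.55 TPM in Zhongshuang 9 air and from 5.29 to 13.6 TPM in submerged Zhongshuang 9, where replicate 1 was lowest. The second C03 copy, BnaC03g16530D, had no count in 3 libraries, which allows up to 0.108 to 0.137 TPM. In Avatar air replicate 3, 33 of its 40 neighbours had at most 2 counts as well. In Avatar submergence replicate 1 and Zhongshuang 9 submergence replicate 1 only 4 of the 40 did, and the neighbours deviated by 0.54 and 0.41, so this copy was at 0 in the midst of expressed neighbours. Elsewhere it lay between 0.314 and 2.32 TPM, on 8 to 53 counts a library.

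**Figure D3:**
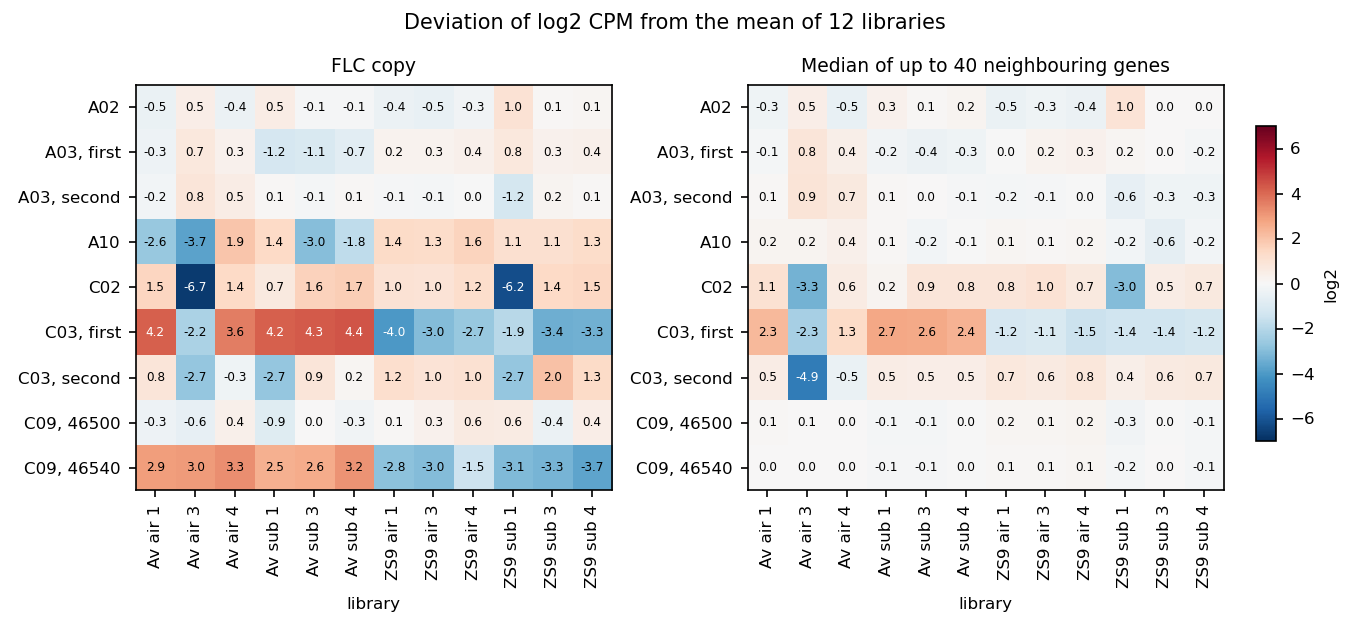
Deviation of log2 CPM from the mean of the 12 libraries (colour and printed value) for each FLC copy (left, rows) and for the median of up to 40 neighbouring tested genes on its chromosome (right), by library (columns; Av is Avatar, ZS9 is Zhongshuang 9, sub is submergence, followed by the replicate number). Rows A02, C02 and the first C03 copy have like patterns on both sides, while A10 and BnaC09g46540D vary on the left with a nearly even row on the right.

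Over the 12 libraries the log2 CPM of a copy and the median of its neighbours had a Pearson correlation of 0.94 for A02, 0.99 for C02, 0.96 for the first C03 copy, 0.80 for the second A03 copy and 0.76 for the first A03 copy. It was 0.54 for the second C03 copy, 0.05 for BnaC09g46500D, -0.06 for BnaC09g46540D and -0.03 for A10. These values are descriptions over 12 libraries, in which single libraries with silent stretches weigh heavily. Of the 50 tested targets most correlated with the C02 copy, 47 lay on C02, which holds 4.15% of tested targets. For the A02 copy 27 of 50 lay on A02 (3.67% of tested targets). On A03 (6.59%) lay 32 of 50 for the second copy and 8 for the first. On C03 (7.74%) lay 16 of 50 for the first copy and 6 for the second. For the A10 copy, gene number 22080, 5 of 50 lay on A10 (3.497%), all near the copy at gene numbers 21400 to 23380. On C09 (5.27%) lay 4 for BnaC09g46540D (gene numbers 7180 to 45400) and 3 for BnaC09g46500D (200 to 47770). The targets most like the first A03 copy, the highest on average, were BnaC01g31860D (Pearson's r = 0.972 over 12 libraries) and BnaCnng40400D (r = 0.959), among those with a mean of at least 5 CPM. BnaC01g31860D had 15.0 ± 2.48 and 9.05 ± 1.37 CPM in Avatar in air and under submergence and 15.5 ± 1.09 and 17.2 ± 1.31 CPM in Zhongshuang 9 (SD, n = 3). BnaCnng40400D had 155 ± 68.3 and 56.1 ± 2.71 CPM in Avatar and 175 ± 17.1 and 181 ± 21.8 CPM in Zhongshuang 9.

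The silence of the first C03 copy in Zhongshuang 9 was shared by a stretch of its chromosome. Its 40 neighbours had similar median deviations, 2.72, 2.64 and 2.43, in the submerged Avatar libraries. Under submergence 30 of these 40 were lower in Zhongshuang 9 by more than 2 on the log2 scale, with a median difference of -3.90 over all 40. By a running median over 11 genes below -1, a limit chosen after the values were seen, the stretch held 36 tested genes with gene numbers 3940 to 4500 and a median difference of -4.08. In each Zhongshuang 9 library 17 to 21 of the 40 neighbours had at most 2 counts, against 0 in each submerged Avatar library and 5, 31 and 6 in Avatar air replicates 1, 3 and 4. The 40 neighbours of the first A03 copy had a median difference of 0.25 under submergence. For the nearest 5 on each side, a number chosen after the values were seen, the median was 0.77. The copy itself differed by 1.47, within the range of -0.95 to 1.73 of these nearest genes. The genes directly before and after the copy differed by 0.99 and 1.69. Around BnaC09g46540D the median difference of 40 neighbours was 0.05 and 1 of them was lower by more than 2, while the copy differed by -6.11.

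**Figure D4:**
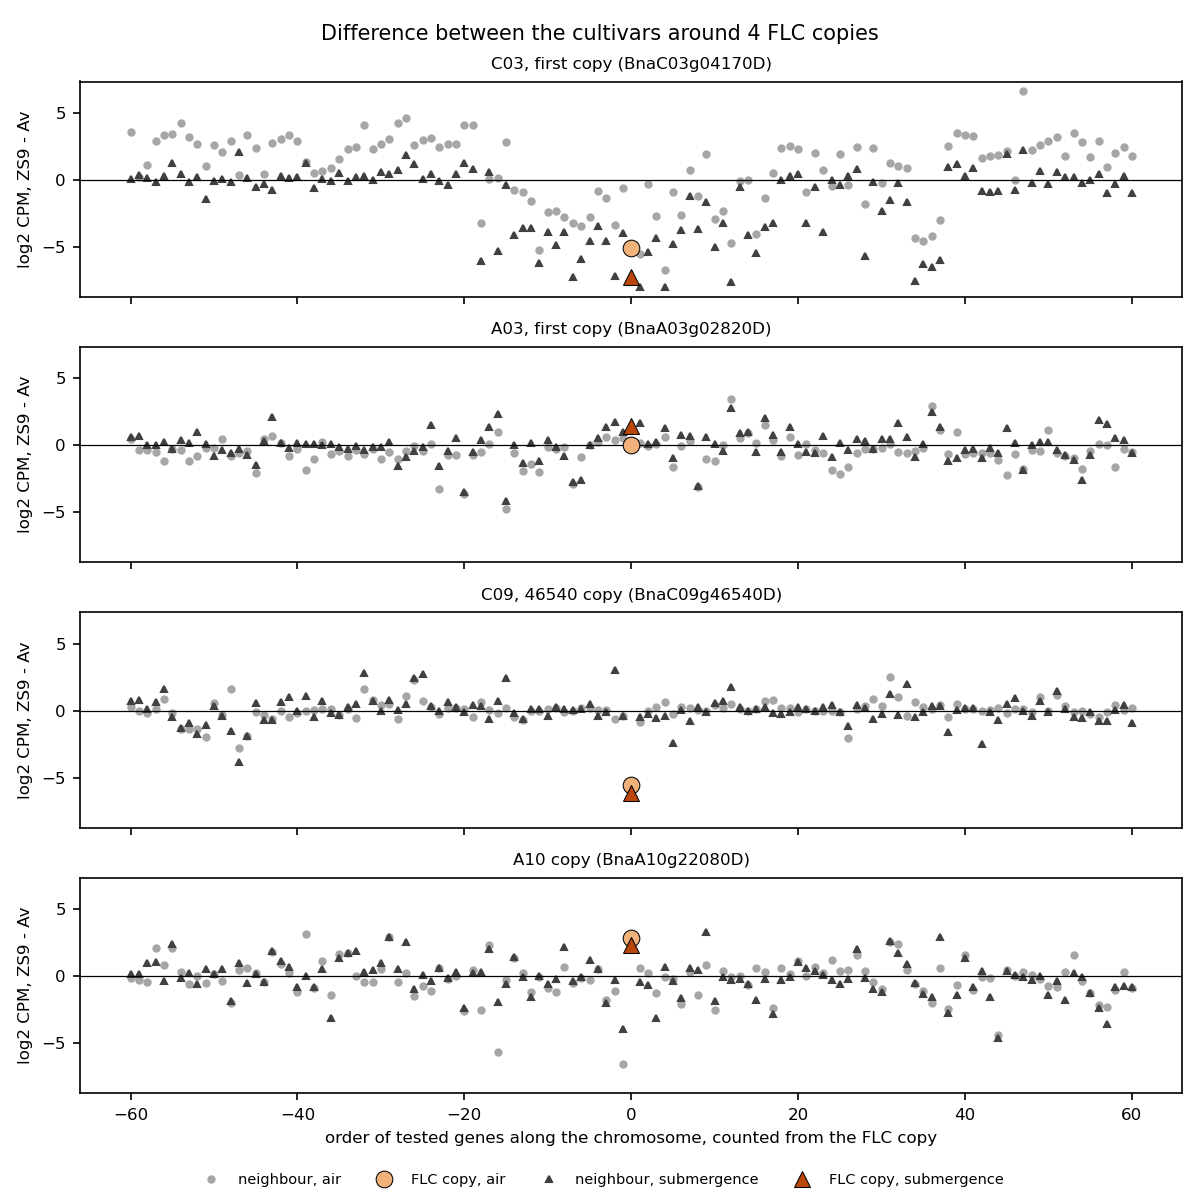
Difference in mean log2 CPM between Zhongshuang 9 (ZS9) and Avatar (Av), 3 libraries each (vertical axis), for the 60 tested genes on either side of 4 FLC copies, in order along the chromosome (horizontal axis, counted from the copy), in air (circles) and under submergence (triangles). The first C03 copy lies in a trough of lowered genes, and BnaC09g46540D lies alone near -6 among neighbours near 0. Around the C03 copy the air points of flanking genes lie higher than the submergence points. The Avatar air means there include replicate 3, in which 31 of the 40 neighbours of the copy had at most 2 counts. How far this library accounts for the higher air points was not tested.

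Each A copy was taken with its C counterpart, by chromosome and order. In TPM the summed level of the A02 and C02 pair was similar in the air libraries and more spread under submergence. In CPM this did not hold throughout. The SD there (n = 3) was 0.653 in Avatar air and 2.92 in Zhongshuang 9 air, against 1.42 and 3.97 in the same cultivars under submergence. In TPM the sum was 44.4, 46.8 and 46.8 in Avatar air and 42.3, 41.9 and 46.8 in Zhongshuang 9 air. Submerged Avatar had 79.3, 68.9 and 69.5 TPM and submerged Zhongshuang 9 had 86.6, 70.6 and 70.9 TPM. Every submerged library lay above every air library. Of the libraries with a silent C02 copy, Avatar air replicate 3 lay level with replicate 4, and Zhongshuang 9 submergence replicate 1 was the highest of all 12. The A share of the pair ranged from 49.7% to 52.4% in Avatar air replicates 1 and 4 and was 100% in replicate 3; in Zhongshuang 9 it was 59.1% ± 0.775 (SD, n = 3) in air, 61.4% and 60.8% in submerged replicates 3 and 4 and 99.9% in submerged replicate 1. Submergence multiplied the pair's mean by 1.58 ± 0.136 in Avatar and by 1.74 ± 0.237 in Zhongshuang 9 in TPM (ratio ± propagated SD), and by 1.25 and 1.43 in CPM with composition factors (TMM-scaled CPM), again without overlap. Without the 5 libraries with shifted stretches the ratios were 1.56 and 1.68 in TPM and 1.217 and 1.433 in CPM.

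In the first A03 and C03 pair the A share was 53.8% ± 2.32 in submerged Avatar and 99.9% ± 0.104 in submerged Zhongshuang 9 (SD, n = 3). The summed level of this pair in air, 66.8, 103 and 88.2 TPM in Avatar and 70.2, 75.2 and 77.0 TPM in Zhongshuang 9, overlapped between the cultivars. Under submergence it was 66.0, 66.4 and 75.6 TPM in Avatar and 131, 90.2 and 91.9 TPM in Zhongshuang 9, without overlap. The second A03 copy made up 85.4% to 100% of its pair in every library. In the A10 and C09 group the A share was 86.2% ± 2.17 in Zhongshuang 9 in air and 86.1% ± 3.72 under submergence, and in Avatar it was 2.05% to 8.19% in the 4 libraries with a low A10 copy and 52.5% and 57.2% in the others. Zhongshuang 9 thus drew this group mainly from A10 and most Avatar libraries from BnaC09g46540D. These shares rest on an estimated division of reads that fit several copies. The A10 copy and both C09 copies had whole counts in 0 of 12 libraries.

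**Figure D5:**
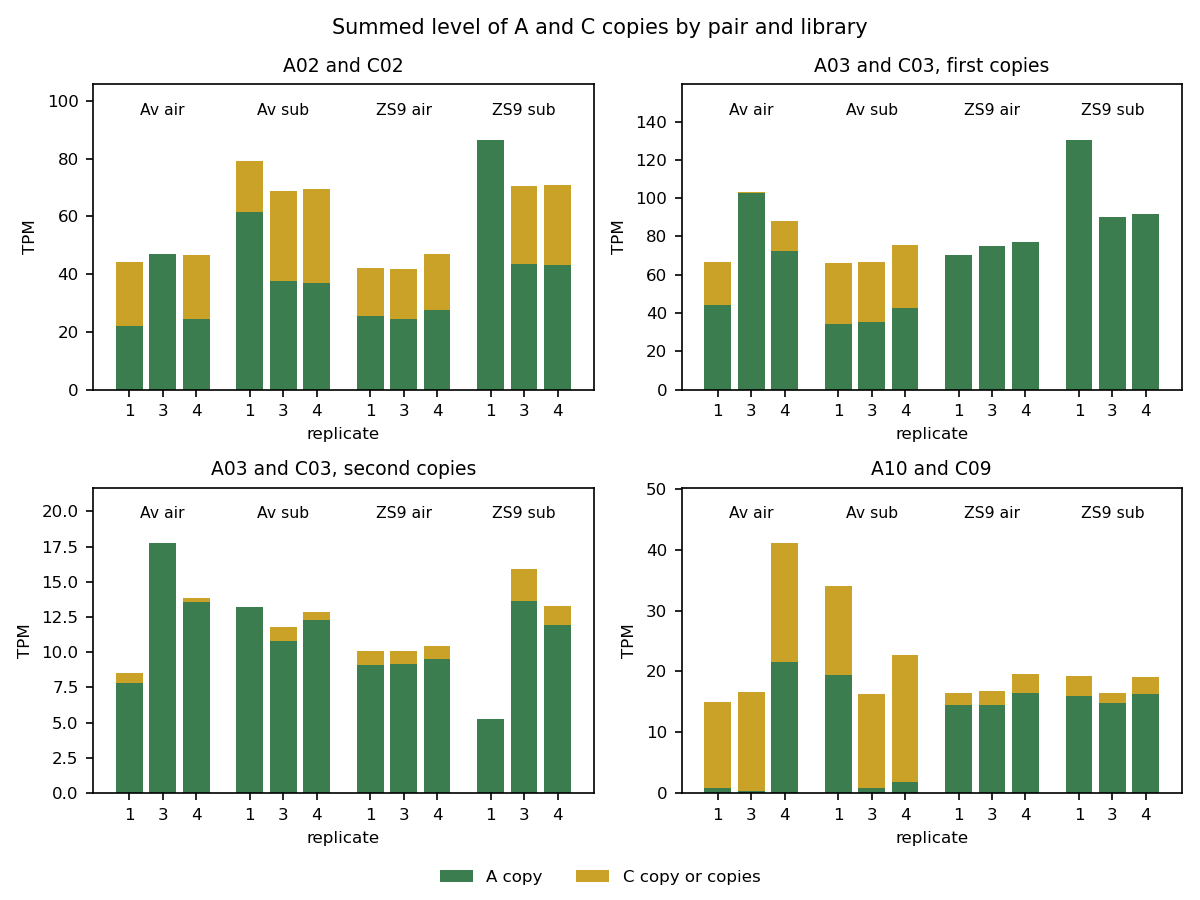
TPM (vertical axis, linear, each panel with its own scale) of the A copy (green) and the C copy or copies (yellow) stacked for each of 4 pairs, by library, with replicates 1, 3 and 4 of Avatar (Av) and Zhongshuang 9 (ZS9) in air and under submergence (sub). The A02 and C02 bars reach 41.9 to 46.8 TPM in air and 68.9 to 86.6 TPM under submergence. The highest submerged bars, at 79.3 and 86.6 TPM, have the largest A shares of the submerged libraries, 77.4% and 99.9%. The A03 and C03 bars of Zhongshuang 9 are green almost to the top.

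Over all 9 copies the A copies held 84.6% to 85.7% of the FLC total in Zhongshuang 9 in air, and 55.5%, 91.1% and 69.6% in Avatar air replicates 1, 3 and 4. The total was 170 ± 30.3 TPM in Avatar in air, 179 ± 14.6 TPM in submerged Avatar, 146 ± 7.63 TPM in Zhongshuang 9 in air and 210 ± 27.5 TPM in submerged Zhongshuang 9 (SD, n = 3). In Zhongshuang 9 the submerged libraries (193 to 242 TPM) lay above the air libraries (139 to 154 TPM), with a ratio of 1.44 ± 0.204 in TPM and 1.18 in CPM. In Avatar the treatments overlapped, and the ratio of submergence to air was 1.05 ± 0.208 in TPM but 0.840 in CPM. Without the 5 libraries it was 1.37 in TPM in Zhongshuang 9 and 1.28 in TPM (0.998 in CPM) in Avatar.

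Submergence lowered the first A03 copy in Avatar, the only copy called there, where 40% of tested targets changed (18.4% fell and 21.6% rose). Its TPM values, given above, were 44.2 to 103 in air and 34.4 to 42.7 under submergence, without overlap, but the lowest air and the highest submerged library lay close together. The log2 fold change was -1.28 ± 0.25 (± SE, n = 3, edgeR adjusted p = 0.00223) and passed the threshold in all 24 alternatives. It was -0.54 without the 5 libraries with shifted stretches, against a single air library, and -0.54 after each gene was centred on its neighbours. In Zhongshuang 9 the same copy rose in TPM in every submerged library, from 70.2 to 76.8 to 90.1 to 130, but overlapped in CPM, and the log2 fold change of 0.21 ± 0.24 did not pass the test (edgeR adjusted p = 0.530). The difference between the responses was 1.49 ± 0.35 on the log2 scale (edgeR adjusted p = 0.0715); it passed with DESeq2 (adjusted p = 0.00256) and without Avatar air replicate 1 (edgeR adjusted p = 0.0253), and the adjusted p ranged up to 0.224 over the alternatives, where the fit without the 5 libraries with shifted stretches gave 0.63 and the neighbour-centred fit 0.89. No copy passed this test, against 1.25% of all tested targets (0.438% higher and 0.808% lower), and 1 copy, this one, had an unadjusted p under 0.05.

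In Zhongshuang 9 the A02 copy was the one copy called, as a rise from 25.3, 24.6 and 27.4 TPM in air to 86.6, 43.3 and 43.1 TPM, against 44.5% of tested targets changed (22.5% risen and 22% fallen). The groups did not overlap, and the highest library was the one with the silent C02 start. The log2 fold change was 0.87 ± 0.32 (± SE, n = 3, edgeR adjusted p = 0.0468). The call was lost in 12 of 24 alternatives: with the replicate number as a block (adjusted p = 0.0744), without Zhongshuang 9 submergence replicate 1 (log2 fold change 0.50, adjusted p = 0.190), without Zhongshuang 9 air replicate 1, 3 or 4 (adjusted p = 0.106, 0.129 and 0.0855), without Avatar air replicate 4, Avatar submergence replicate 3 or 4 (adjusted p = 0.0531, 0.0577 and 0.0574), and in 4 further settings. Without the 5 libraries with shifted stretches, which takes out the highest library, the log2 fold change was 0.56. These libraries were listed for shifts seen in these same data, so this value is no independent check. Centred on its neighbours the copy had a log2 fold change of 0.08 ± 0.15 (adjusted p of limma = 0.691). BnaC09g46540D, near silent in this cultivar, had a log2 fold change of -1.35 ± 0.53 (edgeR adjusted p = 0.0606), which passed without Zhongshuang 9 air replicate 1 or 3 (adjusted p = 0.0441 and 0.0263). Without Zhongshuang 9 air replicate 4, the highest air library, it was -0.50 (edgeR adjusted p = 0.568), and without the 5 libraries -0.73 (edgeR adjusted p = 0.415). Over the 9 copies the median log2 fold change under submergence was -0.20 in Avatar and -0.10 in Zhongshuang 9, against 0.11 and 0.01 over all tested targets. With library totals alone in place of composition factors the medians of all targets were 0.45 and 0.29.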

How the data were processed

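The authors deposited, for each of 12 libraries, estimated counts and TPM for 101040 coding sequences, in the columns kallisto writes, per the file headers. Kallisto, edgeR and limma are listed in the submitters' processing notes, with no version, and no source used here gives the genome build. Of the deposited estimated counts 36.3% are not whole (tolerance 0.001), since reads that fit several targets are divided between them, so values of near-identical copies are uncertain; the copies had whole counts in 0 to 6 of 12 libraries.

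Counts were rounded, filtered with filterByExpr (55674 targets left), scaled by TMM and tested with edgeR 4.0.16 (R 4.3.3) quasi-likelihood F tests in a model with 4 group means over 12 libraries, adjusted by Benjamini-Hochberg over all tested targets (threshold 0.05); only the copies are printed. Standard errors are the absolute log2 fold change over the square root of F. CPM uses TMM-scaled library totals. Neighbours are up to 20 tested genes on each side by gene number; deviations use log2 CPM with a prior count of 2. Fits were tested on simulated data. The text names all 9 copies, and the 2 targets of at least 5 CPM most correlated with the highest copy.

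The copies and lists were chosen with earlier results of these data known. Of the identifiers 3347 (3.31%) match a RefSeq table of the Da-Ae assembly, none of them an FLC copy, and 0 of 53 symbols of flowering genes and tissue markers could be paired with an identifier, so that pathway genes and the tissue label were not analysed here. Alternatives used DESeq2 1.42.0 and limma 3.58.1, other scalings and filters, and libraries left out.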

Additional observations from a re-analysis of the deposited data

Results flagged for a closer look

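The first A03 copy, BnaA03g02820D, is listed because its submergence response ran in opposite directions in TPM. Every submerged Avatar library lay below every Avatar air library, and every submerged Zhongshuang 9 library lay above every Zhongshuang 9 air library. The test of the difference gave 1.49 on the log2 scale (edgeR adjusted p = 0.0715). In CPM the Zhongshuang 9 groups overlapped, and the fitted log2 fold change there was 0.21 ± 0.24 (± SE, n = 3, edgeR adjusted p = 0.530). A rise in TPM was general: on log2(TPM + 0.1) the median change over all tested targets was 0.21 in Zhongshuang 9 and 0.36 in Avatar. Avatar air replicates 3 and 4, both with raised A03 neighbours (median deviation 0.83 and 0.42), hold the highest Avatar values. The difference was 1.20 without replicate 3 (edgeR adjusted p = 0.125), 1.49 without replicate 4 (edgeR adjusted p = 0.141), 1.04 without the 2 libraries with a silent C02 start (edgeR adjusted p = 0.121), 0.63 without the 5 libraries with shifted stretches (edgeR adjusted p = 0.224) and 0.89 with neighbour-centred values (limma adjusted p = 0.0571). Groups of 3 libraries are too small for a check of single outlying libraries, which needs at least 4.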

How the results depend on the processing

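The number of copies called kept its value or stayed within 1.5 times of it in most of 24 alternatives for each comparison. For submergence in Zhongshuang 9 this was so only narrowly. There the A02 copy, the one copy called, passed in 12 of 24 alternatives. An equal number can hide a change of copy. For submergence in Zhongshuang 9, the fits without Zhongshuang 9 air replicate 1 or 3 called BnaC09g46540D and no longer the A02 copy. For submergence in Avatar the number of copies called was 1, and 2 without the 2 libraries whose C02 start is silent. For submergence in Zhongshuang 9 it was 1; it was 0 with no filter on low counts, with limma-voom, with the replicate number as a block, without the 2 libraries with a silent C02 start and with neighbour-centred values, 2 without the 5 libraries with shifted stretches, and 0 to 1 with single libraries left out. For the difference of responses it was 0, 1 with DESeq2 and 0 to 1 with single libraries left out. For the cultivars in air it was 2, 1 with limma-voom, 1 with only the libraries compared, where the first C03 copy failed the filter, 3 without the 5 libraries, and 2 to 3 with single libraries left out. Under submergence it was 3, 2 with limma-voom, 4 without the 5 libraries, and 3 with any single library left out. The replicate block changed no other call; same-numbered libraries had correlations of -0.154 to 0.115 between their deviations from group means, so the numbers are not taken as pairs. The A02 copy in submerged Avatar reversed to -0.047 with neighbour-centred values, and ranged from -0.092 (without Avatar submergence replicate 1) to 0.58 (without Avatar air replicate 3) with single libraries left out. The C02 copy in submerged Zhongshuang 9 (-0.22) reversed to 0.051 with library totals alone, 0.37 without the 2 libraries with a silent C02 start, 0.45 without all 5 and ranged from -0.67 to 0.37 with single libraries left out, the latter without Zhongshuang 9 submergence replicate 1. In CPM in place of TPM the A share of the second A03 and C03 pair in Zhongshuang 9 air was 89.7%, and the ratio of the FLC total under submergence was 0.840 in Avatar and 1.18 in Zhongshuang 9. Without the 5 libraries, chosen for these totals after seeing the data, that ratio in TPM was 1.28 in Avatar (1.05 with all), and the total of Zhongshuang 9 over that of Avatar in air was 1.05 (0.859 with all). The causes were not tested. Low copies limit precision: the second C03 copy rests on at most 53 counts a library.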
